A study of Mus musculus with 19 samples.

Results

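The 10 genes described here encode S100 proteins, small calcium-binding proteins made of a pair of EF-hand motifs: S100a3, S100a4, S100a6, S100a7a, S100a8, S100a9, S100a10, S100a11, S100a14 and S100a16. They were taken by name from a table of 34807 genes, and all 10 were found and passed the filter on low counts. The table held 19 bulk RNA sequencing libraries of mouse skin, 15 from tumours and 4 from normal skin, all labelled female. The tumours were labelled squamous cell carcinoma and carried BRAFV600E, an activated kinase of the MAPK pathway, induced with tamoxifen. The tumour samples were labelled with an age of 7 to 20 weeks. Cre recombinase fused to an oestrogen receptor domain was driven by the Ivl promoter, which is active in committed and differentiating keratinocytes, in 6 tumours (Ivl:BRAFV600E). It was driven by the Krt5 promoter in 5 tumours (K5:BRAFV600E) and by the Krt14 promoter in 4 (K14:BRAFV600E), both promoters of basal keratinocytes. The 4 normal skin libraries were labelled WT, and neither an agent nor an age is given for them. K5 and K14 tumours were combined (K5/K14, n = 9) when set against normal skin and Ivl tumours, and K5 was also compared with K14. Ivl models received tamoxifen and K5 and K14 models its 4-hydroxy form, per the methods. K5 and K14 tumours arose on the back and Ivl lesions at several body sites, and the site of each library is not given in the sources used here. Tumours appeared later after induction in the Ivl model than in the K5 and K14 models, per the study. Promoter, inducing agent, time to tumour onset and possibly body site therefore cannot be told apart between Ivl and K5/K14 tumours.

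S100 proteins act inside cells, where calcium opens a surface that binds target proteins, and several of them also act outside cells after release. S100a8 and S100a9 join into calprotectin, which is abundant in neutrophils and is made by keratinocytes in wounded, inflamed or hyperproliferative epidermis, and which sequesters metal ions and signals as an alarmin through Tlr4 and Ager. Most S100 genes lie next to the genes of the cornified envelope in the epidermal differentiation complex, a gene cluster that is opened as keratinocytes mature.

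In GRCm38, all 10 genes lay on chromosome 3. S100a14, S100a16, S100a3, S100a4, S100a6, S100a7a, S100a8 and S100a9 fell within 168866 bases, from 90526856 to 90695721. S100a11 (93520488 to 93526287) and S100a10 (93555080 to 93564643) followed 2824766 bases further on, with 28792 bases between them. S100a9 was the one member read from the minus strand. The promoters of S100a8 and S100a9 are shown because these genes moved together and rose most, and that of S100a11 because its level per length was the highest in normal skin. Each is the RefSeq entry on GRCm38.p6, 250 bases before to 50 after the annotated start, printed 5′ to 3′, with the searched motifs in capitals. They are S100a8 at chr3:90668821-90669120 on the plus strand, S100a9 at chr3:90695672-90695971 on the minus strand and S100a11 at chr3:93520246-93520545 on the plus strand.
S100a8: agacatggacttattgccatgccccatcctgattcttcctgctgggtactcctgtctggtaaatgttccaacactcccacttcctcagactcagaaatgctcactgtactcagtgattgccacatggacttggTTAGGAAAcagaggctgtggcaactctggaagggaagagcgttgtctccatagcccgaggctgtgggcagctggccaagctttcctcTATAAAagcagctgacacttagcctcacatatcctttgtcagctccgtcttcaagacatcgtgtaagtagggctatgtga
S100a9: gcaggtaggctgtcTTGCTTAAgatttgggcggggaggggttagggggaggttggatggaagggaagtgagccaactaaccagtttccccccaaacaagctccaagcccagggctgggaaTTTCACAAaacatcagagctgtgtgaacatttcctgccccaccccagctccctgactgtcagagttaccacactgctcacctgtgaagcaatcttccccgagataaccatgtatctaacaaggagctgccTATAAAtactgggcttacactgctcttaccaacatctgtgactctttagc
S100a11: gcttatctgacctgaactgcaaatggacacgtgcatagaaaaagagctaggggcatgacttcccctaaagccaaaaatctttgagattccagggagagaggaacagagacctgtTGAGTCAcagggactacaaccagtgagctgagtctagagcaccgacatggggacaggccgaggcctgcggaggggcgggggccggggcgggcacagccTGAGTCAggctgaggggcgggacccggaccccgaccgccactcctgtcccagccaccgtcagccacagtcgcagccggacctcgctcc

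Promoters were listed for 8 of the 10 genes, S100a10 and S100a14 having no entry. Both strands were searched for AP-1 (TGANTCA), C/EBP (TTNNGNAA), STAT (TTCNNNGAA), SOX (ACAATG) and the TATA box (TATAAA). The S100a8 promoter held a C/EBP match beginning at -117 and a TATA box at -30 from the start. The S100a9 promoter held C/EBP matches at -236 and -130 and a TATA box at position 1, the annotated start itself. S100a11 held 2 AP-1 matches, at -136 and -38, and no TATA box. Among the others, S100a4 had a TATA box at -31, S100a7a a STAT match at -169, and the second listed start of S100a16 an AP-1 match at -192 and a SOX match at -97. S100a3, with 4 listed starts, had C/EBP matches at 2 of them and a TATA box at another, and S100a6 had no match. Of 32851 mouse promoters of this length, 7.81% held an AP-1 match, 40.7% a C/EBP match, 8.30% a STAT match, 12.6% a SOX match and 13.6% a TATA box. The C/EBP letters are therefore common, and a match describes the sequence without showing that a factor binds there.

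Library totals lay between 45715309 and 72609771 counts. Ivl replicates 1, 2 and 3 and K5 replicate 1 stood apart as a set: for 96.6% of 13954 genes their mean lay within 0.1 log2 units of the mean of the other 15 libraries, against a median of 29.5% over all 3876 possible sets of 4. The authors adjusted their counts for batch, and the labels name no batch, so the tests of the S100 genes and the counts over gene lists are also given within the other 15 libraries (3 Ivl, 8 K5/K14 and 4 normal skin). The set holds tumours only, whereas the other 15 libraries include all 4 normal skins. For 8 of the 10 S100 genes the 2 means differed by less than 0.1 log2 units, and for S100a8 and S100a9 the set of 4 was lower by 0.174 and 0.172. Keratinocyte markers were present in every library, since Krt14, Krt5 and the other 5 basal genes summed to 3836 to 7894 CPM (counts relative to the TMM-scaled library total) in normal skin and 10820 to 67210 CPM in the tumours. Skeletal muscle genes, led by Myh4, Acta1 and Tnnt3, summed to 2205 to 6395 CPM in normal skin and 6.86 to 3813 CPM in the tumours, so the normal skin was a tissue of several layers. The highest tumour here was Ivl replicate 2, a library of the set of 4. In such bulk samples, fewer cells of a type and less RNA per cell cannot be told apart.

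Levels were first ordered within normal skin and within tumours. Per kilobase of exon, S100a11 came first at 367 ± 97.5 CPM (SD, n = 4), above S100a14 in 4 of 4 libraries. S100a14 (179 ± 13.4), S100a6 (146 ± 37.7), S100a10 (121 ± 72.4) and S100a16 (120 ± 13.9) followed, and these neighbours did not keep 1 order in all 4 libraries. S100a4, S100a9, S100a8, S100a7a and S100a3 lay at 21.3 CPM per kilobase or less. In the 15 tumours the order was different. S100a9 led at 3630 ± 2380 CPM per kilobase (SD, n = 15), above S100a8 at 1770 ± 1010 in 14 of 15 tumours. S100a8 exceeded S100a11 (1510 ± 363) in 8 of 15 tumours, so these neighbours were not ordered beyond their spread. S100a14, S100a16, S100a6, S100a10, S100a7a, S100a4 and S100a3 followed, and S100a3 stood at 2.19 ± 3.47. The per-length level of S100a3 is low in part by construction, since its annotated exons span 5660 bases, against 511 to 1727 for the others.

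The 10 genes together took 0.152% to 0.201% of all counts in normal skin libraries and 0.276% to 0.852% in tumours. S100a8 and S100a9 alone took 0.00127% to 0.00400% in skin and 0.00923% to 0.547% in tumours. Within the counts of the 10 genes, their share was 0.798% to 2.43% in skin, 3.35% in Ivl replicate 1 and 18.9% to 64.2% in the other 14 tumours.

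**Figure D1:**
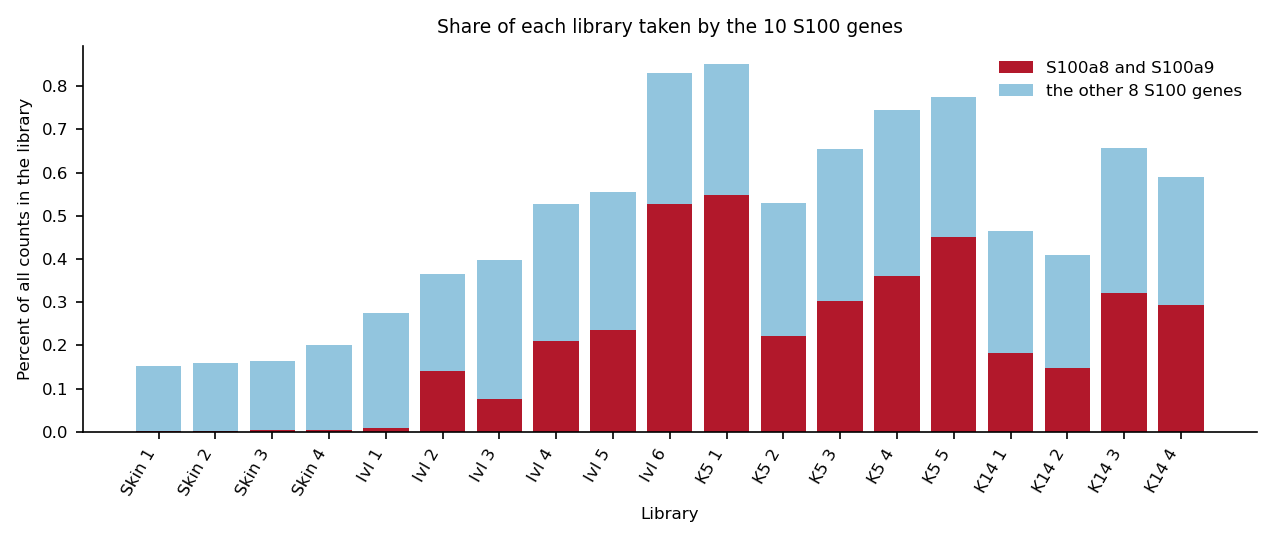
Share of all counts in each library (vertical axis, percent) taken by S100a8 and S100a9 (red) and by the other 8 S100 genes (blue), for the 19 libraries on the horizontal axis. The red share is near 0 in the 4 skin libraries and reaches 0.547% in K5 replicate 1, with Ivl replicate 1 the lowest tumour at 0.00923%.

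To ask which S100 genes differed between the tumours and normal skin, TMM-scaled levels were compared with edgeR's quasi-likelihood test. Its p-values were Benjamini-Hochberg adjusted across the whole set of 32031 genes, and an adjusted p below 0.05 counted as a change. In Ivl tumours 7 of the 10 genes rose and none fell: S100a6, S100a7a, S100a8, S100a9, S100a11, S100a14 and S100a16. Over all genes tested 20.4% were raised and 15.5% lowered in this comparison. The same 7 genes rose in K5/K14 tumours, where S100a3 fell, against 23.2% raised and 38.9% lowered over all genes. Both comparisons used the same normal skin libraries. The median log2 fold change of the 10 genes was 1.75 in Ivl and 1.92 in K5/K14 tumours, beside -0.46 and -0.60 over all genes. Within the 15 libraries the same 7 genes rose in Ivl tumours, none fell, and 22.2% of all genes were raised and 32.7% lowered. For K5/K14 tumours within the 15 libraries, 7 rose and none fell, against 23.9% and 42.3% of all genes.

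These values move with the scaling of the libraries. Normal skin had TMM factors of 1.43 to 1.66 and the tumours 0.806 to 1.15. With library totals in place of TMM, the median of all genes moved from -0.46 to -1.13 for Ivl and from -0.60 to -1.40 for K5/K14 tumours. Fold changes of S100 genes then fell by about the same amount, and 7 remained raised in Ivl tumours. In K5/K14 tumours S100a7a no longer passed the test (log2 fold change 1.31, adjusted p = 0.0539, edgeR). There 6 genes were raised, and S100a3 and S100a4 were lowered. Of all 32031 genes, library totals gave 2868 raised and 15460 lowered in Ivl, and 3239 and 20668 in K5/K14 tumours.

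**Figure D2:**
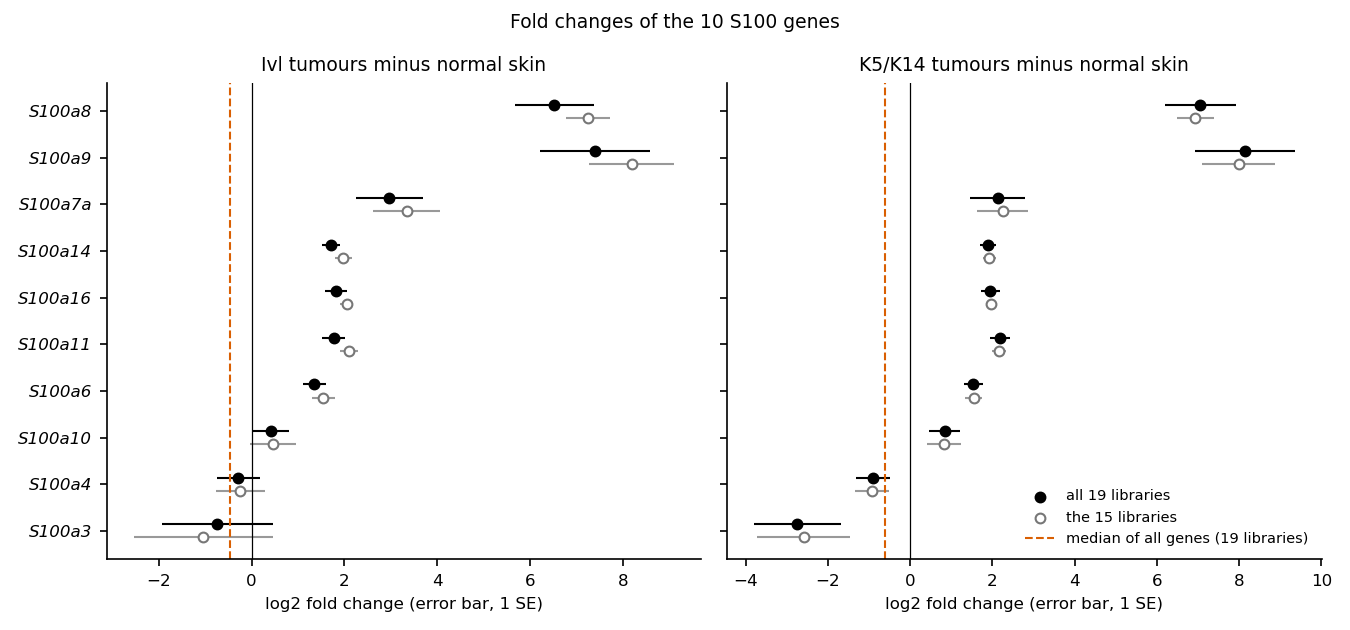
Log2 fold change against normal skin (horizontal axis) of the 10 S100 genes (vertical axis) in Ivl tumours (left) and K5/K14 tumours (right), with 1 standard error as the bar, from all 19 libraries (filled) and from the 15 libraries (open). The dashed line is the median of all genes, -0.46 and -0.60, and S100a8 and S100a9 lie farthest from it in both panels.

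The largest rises were those of S100a8 and S100a9, the subunits of calprotectin. S100a8 stood at 14.1, 6.24, 13.5 and 8.33 CPM in the 4 normal skin libraries. It ran from 45.9 CPM through a median of 787.5 to 2596 in the 6 Ivl tumours. In K5 tumours it was 2282, 1112, 1447, 1556 and 1943 CPM, and in K14 tumours 732, 719, 1497 and 1341. Every tumour lay above every skin library. Ivl replicate 1, at 45.9 CPM, was well under the next lowest tumour, Ivl replicate 3 at 397. Both belong to the set of 4 that stands apart, as does K5 replicate 1, at 2282 CPM. The log2 fold change was 6.52 ± 0.85 (SE) in Ivl tumours, or 91.7-fold (adjusted p = 2.23e-05, edgeR), and 7.06 ± 0.86, or 133-fold, in K5/K14 tumours (adjusted p = 4.26e-06, edgeR). It was 7.25 ± 0.48 and 6.94 ± 0.46 within the 15 libraries.

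S100a9 stood at 1.36, 2.05, 13.4 and 15.2 CPM in normal skin, a spread over libraries wider than that of S100a8. The Ivl tumours held 50.5 to 3947 CPM, with a median of 1107. K5 tumours held 4030, 1595, 2184, 2377 and 3545 CPM, and K14 tumours 1115, 853, 2452 and 2150. Again no tumour overlapped normal skin, and again Ivl replicate 1 was the lowest. The highest tumour, K5 replicate 1 at 4030 CPM, belongs to the same set of 4 that stands apart. The log2 fold change was 7.40 ± 1.18 in Ivl (169-fold, adjusted p = 9.64e-05, edgeR) and 8.14 ± 1.21 in K5/K14 tumours (282-fold, adjusted p = 2.88e-05, edgeR). Within the 15 libraries these were 8.19 ± 0.92 and 7.99 ± 0.89.

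Both subunits followed each other across tumours. Over the 15 tumours, Pearson's r of their log2 CPM was 0.985 and Spearman's rho 0.993, each with a permutation p of 1e-05, the smallest that 100000 permutations can give, and 5e-05 after adjustment over 5 relations. Without Ivl replicates 1 and 3, the tumours farthest from the median of S100a8, r was 0.987, and within the 11 tumours of the 15 libraries it was 0.983. The log2 ratio of S100a9 to S100a8 was -3.38, -1.61, -0.01 and 0.86 in normal skin, 0.27 ± 0.46 (SD, n = 6) in Ivl and 0.63 ± 0.18 (SD, n = 9) in K5/K14 tumours. Skin libraries thus spread far more in this ratio than tumours did. By exact two-sided permutation tests, adjusted over the 6 ratio comparisons made, the K5/K14 minus skin difference of 1.66 (p = 0.0154, adjusted 0.0725), the Ivl minus skin difference of 1.30 (p = 0.105, adjusted 0.186) and the Ivl minus K5/K14 difference of -0.36 (p = 0.0242, adjusted 0.0725) did not pass 0.05. Without normal skin replicate 4, the highest skin value, all 3 passed, with differences of 1.93 for Ivl minus skin, 2.30 for K5/K14 minus skin and -0.36 for Ivl minus K5/K14 (adjusted p = 0.0484, 0.0273 and 0.0484, exact permutation tests). The Ivl minus K5/K14 comparison holds no skin library. Its difference and unadjusted p stayed the same, and only its adjustment over the 6 comparisons changed. The K5/K14 minus skin and Ivl minus K5/K14 differences also passed without K14 replicate 2 (adjusted p = 0.0485 and 0.0140, exact) or Ivl replicate 6 (adjusted p = 0.0462 for both, exact). The K5/K14 minus skin comparison holds no Ivl library, so without Ivl replicate 6 only its adjustment changed. The differences within the 15 libraries were 1.55 (Ivl minus skin), 1.64 (K5/K14 minus skin) and -0.09 (Ivl minus K5/K14), none passing after adjustment. The smallest p these designs allow with all 19 libraries is 0.00476, 0.00140 and 0.000200.

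Since neutrophils carry large amounts of both transcripts, neutrophil markers are set beside them. Of 12 neutrophil genes, 6 were raised and none lowered in Ivl tumours and 8 were raised and none lowered in K5/K14 tumours, and 5 and 9 were raised within the 15 libraries. Over all genes tested 20.4% were raised in Ivl and 23.2% in K5/K14 tumours, and 22.2% and 23.9% within the 15 libraries. The summed level of the 12 genes was 4.62 to 34.4 CPM in skin, 15.5 to 119 in Ivl, 137 to 419 in K5 and 96.4 to 507 in K14 tumours. The most abundant were Mmp9, a gelatinase that other cells also make, Cxcr2, a chemokine receptor, and Csf3r, the G-CSF receptor. Mmp9 alone held 465 of the 507 CPM in K14 replicate 3 and 60.3 of the 119 CPM in Ivl replicate 3. Cxcr2 rose by 4.07 in Ivl and 4.75 in K5/K14 tumours on the log2 scale (adjusted p = 2.31e-05 and 2.83e-06, edgeR), whereas Csf3r had values of 1.29 and 1.14 that did not pass the test (adjusted p = 0.232 and 0.233, edgeR). Ly6g, a defining surface marker named here after its values were seen, was at 0 in all 4 skin libraries and at 0.280 CPM or less in every tumour. At this low level it was among the 6 raised in Ivl tumours (4.70, adjusted p = 0.0189, edgeR). Fpr1 and Mmp8, also raised there and named after their values were seen, lay at or below 0.963 and 1.38 CPM in Ivl tumours. Across the 15 tumours the mean log2 CPM of the neutrophil list and that of S100a8 had r = 0.349 (permutation p = 0.208, adjusted 0.260) and rho = 0.121 (permutation p = 0.667). Without Ivl replicates 1 and 3, r was 0.0215, without Ivl replicate 1 alone it was -0.154, and within 11 tumours it was 0.159. The list mean gives each gene equal weight, and Ly6g, Ngp, Cd177, Fpr1 and Itgb2l lay at or below 1.07 CPM in every library. Ngp, Cd177 and Itgb2l are also named after their values were seen. The list mean thus rests in part on genes near the floor, which limits what r can show. The part of neutrophils in the rise of S100a8 and S100a9 was not tested.

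S100a7a, the mouse relative of psoriasin (an antimicrobial S100 protein of inflamed epidermis), rose less than S100a8 and S100a9. Normal skin held 12.8, 2.24, 11.1 and 18.8 CPM. Ivl tumours ran from 27.9 to 134 CPM with a median of 103.6, and all 6 lay above every skin library. K5 tumours held 15.4, 12.9, 65.1, 68.3 and 60.2 CPM and K14 tumours 23.4, 22.3, 111 and 66.0. K5 replicates 1 and 2 fell within the range of normal skin. The log2 fold change was 2.97 ± 0.72 (7.85-fold, adjusted p = 0.00366, edgeR) in Ivl and 2.13 ± 0.66 (4.39-fold, adjusted p = 0.0102, edgeR) in K5/K14 tumours. Stretches of 100 to 150 bases of its annotated transcripts matched 98 other genes at 95% identity or more, and how reads from those stretches were assigned was not tested.

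**Figure D3:**
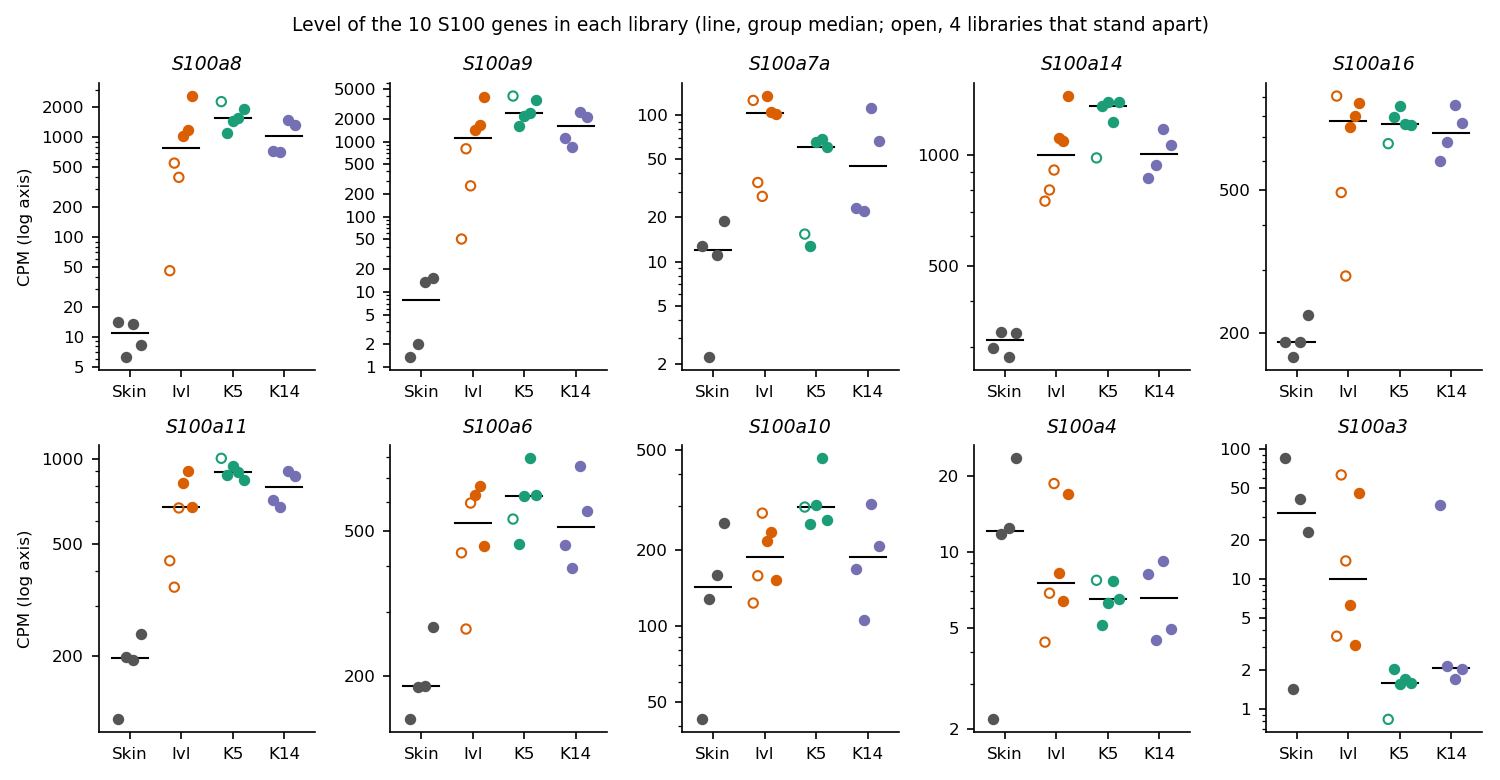
Level of each of the 10 S100 genes in CPM (vertical log axes, each with its own range) in normal skin, Ivl, K5 and K14 libraries, 1 point per library, with the group median as a line and the set of 4 libraries that stand apart as open points. S100a8, S100a9, S100a11, S100a14 and S100a16 show no overlap between tumours and skin, while S100a10, S100a4 and S100a3 overlap.

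S100a14, S100a16, S100a11 and S100a6, which are all expressed by epithelial cells, rose by similar amounts. S100a14, a membrane-associated epithelial member, was the steadiest. It stood at 299, 330, 282 and 328 CPM in skin, at 748 to 1444 with a median of 1001 in Ivl, at 981, 1361, 1389, 1224 and 1393 in K5 and at 864, 939, 1175 and 1065 in K14 tumours. Its log2 fold change was 1.72 ± 0.19 (3.29-fold, adjusted p = 1.82e-05, edgeR) in Ivl and 1.90 ± 0.19 (3.73-fold, adjusted p = 1.24e-06, edgeR) in K5/K14 tumours, and its highest tumour value was 1.93 times its lowest. No tumour overlapped normal skin.

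S100a16, a broadly expressed member with a single working calcium site, stood at 189, 172, 189 and 225 CPM in skin. In Ivl tumours it ran from 288 through a median of 774 to 908, and K5/K14 tumours lay between 600.1 and 860 CPM. The fold change was 1.82 ± 0.24 on the log2 scale in Ivl (adjusted p = 2.17e-05, edgeR) and 1.95 ± 0.23 in K5/K14 tumours (adjusted p = 2.90e-06, edgeR). Ivl replicates 3 and 2, at 288 and 491 CPM, were the lowest tumours, and even they exceeded every skin library. Both belong to the set of 4 that stands apart, as does the highest tumour, Ivl replicate 1 at 908 CPM.

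S100a11, which takes part in keratinocyte growth control and membrane repair and binds Anxa1, stood at 119, 199, 193 and 239 CPM in skin. Ivl tumours held 351 to 905 CPM with a median of 672, K5 tumours 1002, 872, 939, 893 and 843, and K14 tumours 714, 674, 907 and 866. Its log2 fold change was 1.77 ± 0.24 in Ivl (adjusted p = 2.33e-05, edgeR) and 2.19 ± 0.24 in K5/K14 tumours (adjusted p = 1.54e-06, edgeR). The genes Gm12854 and Gm7665 match 297 bases of S100a11 at 99.0% and 98.6% identity, and the table lists up to 2545 and 1988 counts for them, so some S100a11 reads may be split among the 3 genes.

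S100a6, or calcyclin, a gene of proliferating cells, stood at 152, 186, 188 and 273 CPM in skin. Ivl tumours held 269 to 665 CPM with a median of 527, so that Ivl replicate 2 fell just inside the skin range. K5/K14 tumours held 397 to 793 CPM and did not overlap skin. The log2 fold change was 1.35 ± 0.25 in Ivl (adjusted p = 0.000297, edgeR) and 1.54 ± 0.24 in K5/K14 tumours (adjusted p = 3.48e-05, edgeR). In all, 6 of the 10 genes had every Ivl tumour above every skin library, against 13.2% of all genes tested, and 6 had every K5/K14 tumour above every skin library, against 16.7%. Within the 15 libraries the log2 fold changes in Ivl and K5/K14 tumours were 3.34 and 2.25 for S100a7a, 1.98 and 1.93 for S100a14, 2.05 and 1.97 for S100a16, 2.09 and 2.16 for S100a11, and 1.55 in both for S100a6.

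S100a10, which lacks calcium binding and pairs with annexin A2 (Anxa2) at the plasma membrane, was not called in either comparison. Skin held 42.5, 128, 159 and 255 CPM, Ivl tumours 123 to 280 with a median of 188, K5 tumours 296, 253, 302, 463 and 264, and K14 tumours 168, 105, 305 and 208. The groups overlapped throughout. Log2 fold changes were 0.41 ± 0.39 in Ivl (adjusted p = 0.389, edgeR), turning to -0.23 with library totals, and 0.85 ± 0.38 in K5/K14 tumours (adjusted p = 0.0578, edgeR). They were 0.47 and 0.82 within the 15 libraries, neither called. The K5/K14 value passed without K14 replicate 2 (0.95, adjusted p = 0.0265, edgeR) or normal skin replicate 4 (1.25, adjusted p = 0.0126, edgeR). Taken alone against skin, K5 tumours passed (1.11 ± 0.39, adjusted p = 0.0236, edgeR) and K14 tumours did not (0.43 ± 0.40, adjusted p = 0.380, edgeR), but K5 and K14 tumours did not differ from each other in the test (0.68 ± 0.39, adjusted p = 0.860, edgeR).

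Anxa2 itself rose by 1.05 ± 0.22 in Ivl and by 1.4 ± 0.22 in K5/K14 tumours on the log2 scale (adjusted p = 0.00110 and 3.20e-05, edgeR). Over the 15 tumours, S100a10 and Anxa2 had r = 0.778 and rho = 0.768 (permutation p = 0.00074 and 0.00118, adjusted 0.00123 and 0.00197). Without K14 replicate 2 and K5 replicate 4 r was 0.826, and within 11 tumours it was 0.839. The log2 ratio of S100a10 to Anxa2 was -2.20 ± 0.60 (SD, n = 4) in skin, -2.70 ± 0.32 (SD, n = 6) in Ivl and -2.67 ± 0.44 (SD, n = 9) in K5/K14 tumours. None of its 3 differences passed the exact permutation test (adjusted p = 0.186, 0.191 and 0.901 for Ivl minus skin, K5/K14 minus skin and Ivl minus K5/K14).

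S100a4, known from fibroblasts, immune cells and migrating cells, was low everywhere and was not called. Skin held 2.18, 11.8, 12.4 and 23.4 CPM, Ivl tumours 4.40 to 18.6 with a median of 7.56, K5 tumours 7.72, 5.14, 6.28, 7.67 and 6.48, and K14 tumours 8.18, 4.49, 9.20 and 4.95. All groups overlapped, and the skin libraries spanned a wider range than any tumour group. The log2 fold change was -0.28 ± 0.45 in Ivl (adjusted p = 0.615, edgeR) and -0.90 ± 0.41 in K5/K14 tumours (adjusted p = 0.0636, edgeR). They were -0.24 and -0.93 within the 15 libraries, neither called. The K5/K14 value passed without normal skin replicate 1, which holds the lowest level (-1.25, adjusted p = 0.00539, edgeR), without K14 replicate 1 (-1.03, adjusted p = 0.0452, edgeR), with DESeq2 (-1.0, adjusted p = 0.0366), with its size factors in edgeR (-1.0, adjusted p = 0.0371), with filterByExpr (-1.03, adjusted p = 0.0352, edgeR) and with library totals (-1.66, adjusted p = 0.00157, edgeR). Without normal skin replicate 4 it was -0.40 (adjusted p = 0.423, edgeR). Its exons share 51.7% of their bases with Gm42674 on the same strand, for which the table lists no more than 3 counts in any library, so reads in the shared bases may be missing from the S100a4 count.

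The relation of S100a4 to fibroblast genes varied with the tumours and setting used. Of 8 fibroblast genes, led by Col1a1, Col1a2 and Col3a1, none was raised or lowered in Ivl tumours, and 1 was raised and 1 lowered in K5/K14 tumours. In the 15 libraries 3 were lowered in Ivl tumours and 1 in K5/K14 tumours, with none raised. Over all genes 32.7% and 42.3% were lowered there, and 15.5% and 38.9% with all 19 libraries. The summed level of the 8 genes was 857.9 to 18860 CPM in skin and 1597 to 15900 CPM in tumours. Across the 15 tumours r between S100a4 and the mean of the list was 0.185 (permutation p = 0.517, adjusted 0.517) and rho 0.232 (permutation p = 0.401). It was 0.164 without Ivl replicates 3 and 6, -0.0307 without Ivl replicate 3 alone, and -0.337 within 11 tumours, whereas with group means subtracted it was 0.591 (permutation p = 0.020, adjusted 0.025). The part of fibroblasts in the S100a4 level was not tested.

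S100a3, a protein of the hair cuticle, was lowered in K5/K14 tumours and not called in Ivl tumours. Skin held 84.7, 1.41, 41.3 and 22.9 CPM, so normal skin replicate 2 nearly lacked it. Ivl tumours held 3.09 to 63.1 CPM with a median of 10.01. K5 tumours held 0.826, 2.03, 1.54, 1.70 and 1.58 CPM and K14 tumours 37.1, 2.12, 1.70 and 2.00. Only Ivl replicates 2, 3 and 6 and K14 replicate 1 exceeded 10 CPM among the tumours. The log2 fold change was -0.74 ± 1.19 in Ivl (adjusted p = 0.616, edgeR) and -2.74 ± 1.06 in K5/K14 tumours (adjusted p = 0.0335, edgeR). The latter lost its call within the 15 libraries (-2.59, adjusted p = 0.0586, edgeR). It also lost it without any 1 of 9 libraries, namely normal skin replicates 1 and 3, K5 replicates 2, 3, 4 and 5 and K14 replicates 2, 3 and 4, where values ran from -1.95 to -2.71 and adjusted p from 0.0516 to 0.153. K5 tumours alone gave -4.62 ± 1.24 (adjusted p = 0.00573, edgeR) and K14 tumours alone -1.81 ± 1.2 (adjusted p = 0.212, edgeR).

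The level of S100a3 moved with that of hair shaft genes. Of 11 such genes, led by Padi3, Krt35 and Krt83, none was raised or lowered in Ivl tumours and 4 were lowered in K5/K14 tumours (2 and 4 within the 15 libraries). Over all genes tested 15.5% were lowered in Ivl and 38.9% in K5/K14 tumours, and 32.7% and 42.3% within the 15 libraries. The summed level of the 11 genes was 13.7 to 1380 CPM in skin, 9.18 to 594 in Ivl, 18.6 to 126 in K5 and 34.6 to 348.5 in K14 tumours. The tumours fell into a low group of 9, with a list mean below 0 on the log2 CPM scale, and 6 that reached up to 5.36, among them the 4 tumours with over 10 CPM of S100a3. Over the 15 tumours r between S100a3 and the mean of the list was 0.941 (permutation p = 2e-05, adjusted 5e-05) and rho 0.800 (permutation p = 0.00072, adjusted 0.0018). It was 0.904 without Ivl replicates 2 and 6, 0.950 within 11 tumours and 0.911 with group means subtracted. Within the low group, a split on the list mean chosen after seeing the data, r between S100a3 and the list was 0.326 (n = 9, permutation p = 0.398) and rho 0.217 (n = 9, permutation p = 0.583). There the list mean ran only from -1.90 to -1.22, and S100a3 from 0.826 to 3.61 CPM. The split itself narrows the range of the list mean, which favours a weak r, so no conclusion is drawn from it. Among the other 6, S100a3 stood at 2.12 CPM in K14 replicate 2, 6.29 in Ivl replicate 4, 13.7 in Ivl replicate 3, 45.4 in Ivl replicate 6, 37.1 in K14 replicate 1 and 63.1 in Ivl replicate 2, in the order of their list means of 0.72, 1.93, 4.11, 4.18, 4.49 and 5.36. In skin, replicate 2, with 1.41 CPM of S100a3, also had the lowest hair list mean, -1.5, against 4.39 to 6.67 in the other 3. The part of hair follicle tissue in the S100a3 level was not tested.

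**Figure D4:**
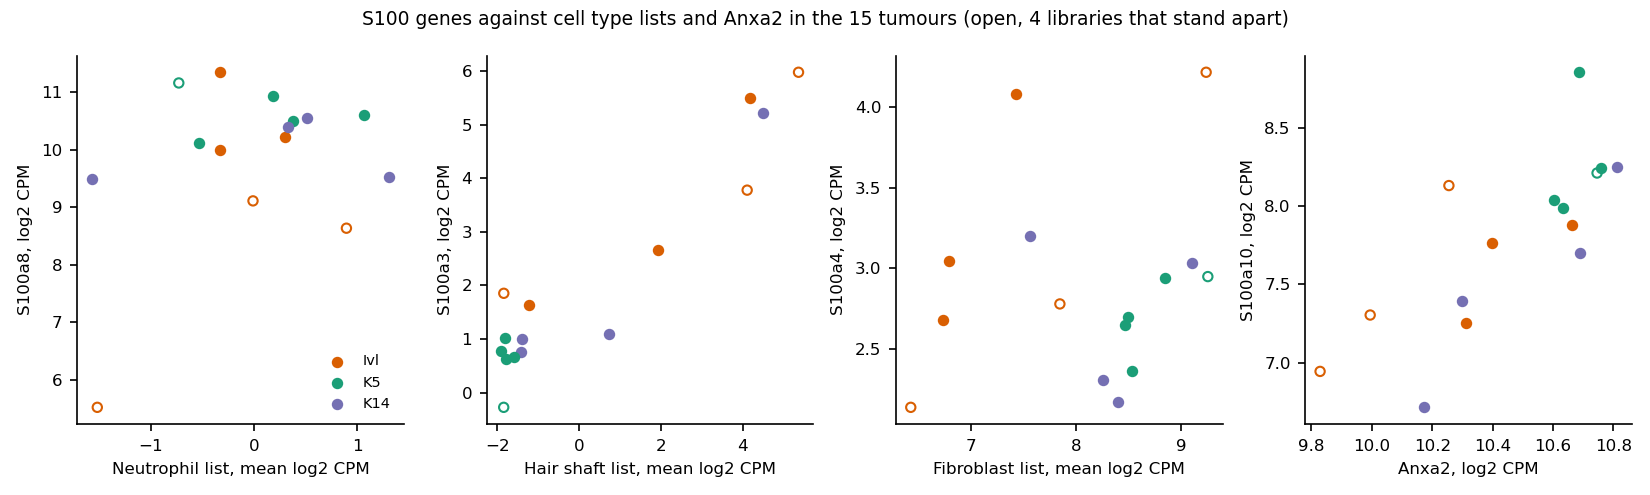
Log2 CPM of S100a8, S100a3, S100a4 and S100a10 (vertical axes) against the mean log2 CPM of the neutrophil, hair shaft and fibroblast lists and against Anxa2 (horizontal axes) in the 15 tumours, coloured by group, with the set of 4 libraries that stand apart as open points. S100a8 is low in Ivl replicate 1 alone, S100a3 is highest in the tumours with a high hair shaft mean (r = 0.941), S100a4 shows no common trend and S100a10 rises with Anxa2 (r = 0.778).

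Whether the S100 genes differed with the promoter, and with the agent, onset time and possibly body site that go with it, was asked next. Of the 10, none differed between Ivl and K5/K14 tumours by edgeR, where 2.36% of all genes did. At an unadjusted p below 0.05 there was 1 member, S100a11 (-0.42 ± 0.19, unadjusted p = 0.0378, adjusted 0.207, edgeR), beside 6754 of all 32031 genes. DESeq2 also called no member, and it called 1376 of all genes raised and 757 lowered. It had 2 members and 6384 of all genes at an unadjusted p below 0.05. Without K14 replicate 1, S100a3 passed (3.76, adjusted p = 0.0211, edgeR). Over all libraries the S100a3 difference was 2.00 ± 0.98 on the log2 scale (unadjusted p = 0.0559, adjusted 0.251, edgeR). Other differences were 0.84 ± 0.51 for S100a7a, 0.62 ± 0.37 for S100a4, -0.54 ± 0.51 for S100a8 and -0.74 ± 0.69 for S100a9. Within the 15 libraries those of S100a8 and S100a9 changed sign, to 0.31 ± 0.34 and 0.20 ± 0.63. None of the 10 was called there, beside 0.41% of all genes. At an unadjusted p below 0.05 there were 0 members, beside 3611 of 31971 genes, by edgeR.

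Between K5 and K14 tumours none of the 10 genes differed, and 0% of all genes were called by edgeR. At an unadjusted p below 0.05, edgeR had 1945 of all genes and 1 member, S100a3 (-2.81 ± 1.16, unadjusted p = 0.027, adjusted 0.773), while DESeq2 called 174 genes and no member. Within the 15 libraries 0.0532% of all genes and no member were called, with 1 member and 3231 of 31971 genes at an unadjusted p below 0.05. The remaining 9 differences ran from -0.33 for S100a7a to 0.74 for S100a9.

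The S100 genes outside the 10 did not rise with them. Of 7 that could be tested, none was raised, 1 was lowered in Ivl and 4 in K5/K14 tumours, where 15.5% and 38.9% of all genes were lowered. The numbers lowered were 3 and 3 within the 15 libraries, S100b and S100g joining S100a1 in Ivl tumours, and 3 and 6 with library totals. Of all genes 32.7% and 42.3% were lowered within the 15 libraries, and 15460 and 20668 of 32031 with library totals. S100a1, a regulator of calcium handling in muscle, stood at 24.9 to 39.0 CPM in skin and 6.44 to 30.9 in tumours, and fell by 0.91 in Ivl and by 1.35 in K5/K14 tumours on the log2 scale (adjusted p = 0.0442 and 0.00112, edgeR). S100b, a marker of Schwann cells and melanocytes, stood at 2.55 to 3.71 CPM in skin and at 2.94 or less in tumours, and fell by 3.2 in K5/K14 tumours (adjusted p = 0.00164, edgeR). S100g and S100a5 were also lowered there, but both lay at or below 0.237 CPM in every library. S100a13, which aids the release of some growth factors, had 5.66 to 17.8 CPM in skin and 5.49 to 15.6 in tumours and was not called. S100a2 and S100z, at 0.462 CPM or less everywhere, were not called, and S100a2 turned from a positive to a negative value with library totals.

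Receptors and partners of S100 proteins were examined as a list of 16 genes. In Ivl tumours 6 were raised and 2 lowered, and in K5/K14 tumours 9 were raised and 5 lowered. The list medians were 0.38 and 0.65, beside -0.46 and -0.60 over all genes. Over all genes 20.4% were raised and 15.5% lowered in Ivl, and 23.2% and 38.9% in K5/K14 tumours. In the 15 libraries the counts of the list were 6 and 4, and 9 and 5, beside 22.2% and 32.7%, and 23.9% and 42.3% of all genes. With library totals the counts of the list became 3 and 5, and 4 and 6. Those of all 32031 genes were 2868 and 15460, and 3239 and 20668. Nptn, Anxa5 and Anxa11 then turned negative in both comparisons, Mcam in Ivl and Capn1 in K5/K14 tumours. Of the receptors of calprotectin, Ager (the receptor for advanced glycation end products) stood at 1.05 to 2.68 CPM in skin and 0.722 to 2.14 in tumours and was not called. Tlr4, a pattern recognition receptor, had -0.58 in Ivl (adjusted p = 0.286, edgeR) and fell by 1.76 in K5/K14 tumours (adjusted p = 0.00119, edgeR). Cd36, a fatty acid receptor, fell by 4.12 in K5/K14 tumours (adjusted p = 0.00251, edgeR), from 70.4 to 239.6 CPM in skin to 0.985 to 30.8 CPM.

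Receptors of the immunoglobulin superfamily did not move as 1 group. Bsg, a glycoprotein that binds S100a9, stood at 141 to 209 CPM in skin and 229 to 577 in tumours, and it rose by 1.11 in Ivl and 1.47 in K5/K14 tumours (adjusted p = 5.41e-05 and 1.90e-06, edgeR). Nptn rose in both (0.64 and 0.78), and Mcam in K5/K14 tumours (1.51, adjusted p = 0.00326, edgeR). Alcam fell by 3.08 in K5/K14 tumours (adjusted p = 0.000154, edgeR) and by 2.30 in Ivl tumours within the 15 libraries (adjusted p = 0.0016, edgeR), where Ivl replicate 1, at 134 CPM against 12.3 to 20.0 in the other Ivl tumours, is left out.

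Among the partners, Anxa1, a calcium-dependent phospholipid-binding protein, rose by 2.29 in Ivl and 1.81 in K5/K14 tumours (adjusted p = 4.55e-05 and 0.000140, edgeR), from 352 to 670 CPM in skin to 738 to 3607. Cacybp, the calcyclin-binding protein, rose by 1.38 and 1.07 (adjusted p = 3.39e-05 and 0.000116, edgeR). Capn1, a calpain, rose by 0.76 and 0.77. Plat, tissue plasminogen activator, rose in K5/K14 tumours (1.96), as did Anxa5 (0.52). Ahnak, a giant scaffold that S100a10 and Anxa2 hold at the membrane, fell by 0.77 and by 1.54 (adjusted p = 0.0362 and 4.51e-05, edgeR), and Anxa6 fell by 1.46 and by 1.06. Anxa11 was not called (0.27 and 0.40).

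**Figure D5:**
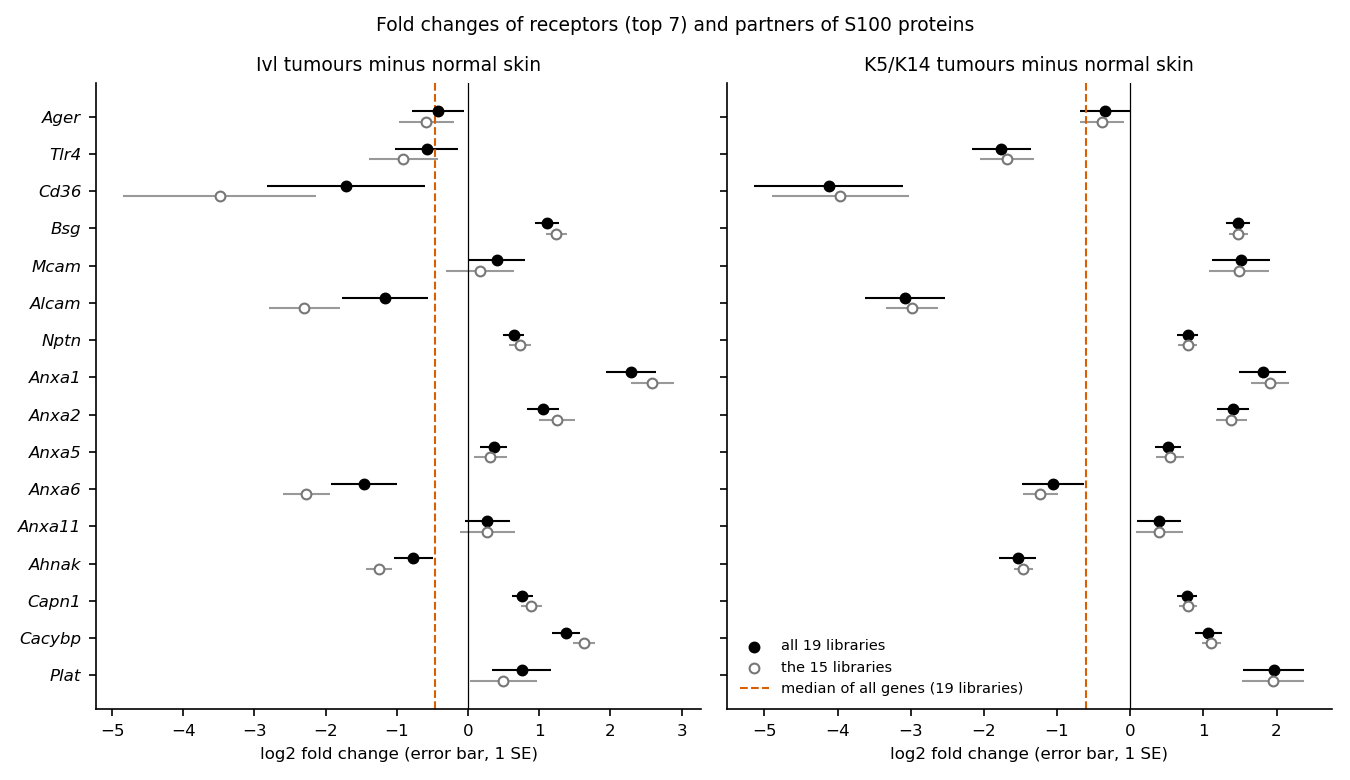
Log2 fold change against normal skin (horizontal axis, bar of 1 standard error) of 7 receptors and 9 partners of S100 proteins (vertical axis) in Ivl tumours (left) and K5/K14 tumours (right), from all 19 libraries (filled) and from the 15 libraries (open), with the median of all genes as a dashed line. Bsg, Anxa1, Anxa2 and Cacybp lie to the right in both panels, whereas Cd36, Alcam and Ahnak lie to the left.

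Of 9 alarmins that are not S100 proteins, 7 were raised and none lowered in both Ivl and K5/K14 tumours, beside 20.4% and 23.2% of all genes raised. Hmgb1, a nuclear alarmin (0.36 and 0.17), and Camp, the cathelicidin (-1.48 and -1.66), both named after their values were seen, did not pass. The most abundant were Hmgn1, a nucleosome-binding protein (1.42 and 1.5), Il33, an epithelial cytokine (2.87 and 3.02), and Hmgb2, a chromatin protein (1.28 and 0.997). With library totals 7 were raised and 1 lowered in Ivl, and 5 raised and 2 lowered in K5/K14 tumours, Hmgb1 being lowered in both. Of all 32031 genes, library totals gave 2868 raised and 15460 lowered in Ivl, and 3239 and 20668 in K5/K14 tumours. In the 15 libraries 8 were raised and 1, Camp, lowered in Ivl tumours, and 7 and 0 in K5/K14 tumours. Camp lay at 0.264 CPM or less in every library. Of 18 neighbours in the epidermal differentiation complex, led by Rptn, Sprr1b and Lor, 13 were raised and 1 lowered in Ivl tumours, and 13 were raised and 2 lowered in K5/K14 tumours (3 lowered within the 15 libraries, the other counts being equal). All 8 genes of differentiated keratinocytes were raised in both comparisons, and of 7 basal genes 5 were raised in Ivl and 7 in K5/K14 tumours, with equal counts within the 15 libraries. The median log2 fold changes in Ivl and K5/K14 tumours were 2.97 and 2.71 for the differentiated list and 1.46 and 1.87 for the basal list. The summed level of the differentiated list, led by Krt1, Krt10 and Calm4, was 3075 to 6748 CPM in skin and 11790 to 68640 CPM in tumours, and the part of keratinocyte content in the S100 rises was not tested.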

How the data were processed

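Poly(A) RNA from 15 mouse tumours and 4 normal skins was sequenced by the authors as paired strand-specific libraries. Reads were trimmed with Trim Galore, aligned to GRCm38 (Ensembl release 100) with HISAT2 2.1.0 and counted per gene with featureCounts (Subread 1.6.3). Batches were then adjusted with ComBat-seq, so the deposited table holds estimated counts (expected counts) as whole numbers, and those values are model adjustments of what was sequenced. A supplementary legend gives 2 sequencing batches, run separately, with 4 and 15 libraries, but their members are not given in the sources used here. The S100 genes, all gene lists and tests were chosen with earlier results of these data known.

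Of 34807 genes, 34694 matched GENCODE release M21 by identifier. Genes reaching 5 counts in any 1 library (32031) were tested with edgeR 4.0.16 in R 4.3.3 (TMM, robust quasi-likelihood test, Benjamini-Hochberg adjustment over all genes). All 19 libraries entered 1 fit, with K5 and K14 merged, or as separate groups where they are set apart. The study used DESeq2, run here (version 1.42.0) as an alternative. CPM are TMM-scaled, and log2 CPM add a prior count of 2. SE was derived from the fold change and F. Ratios were compared by exact permutation and correlations over tumours with 100000 permutations. Numbered replicates are separate samples in the labels, and nothing says which share an animal, so p-values measure the spread between these samples. No 2 libraries of a group matched within sampling noise. The test was checked on simulated counts.

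Named genes are the 10 members, the other S100 genes, all 16 receptors and partners, the 3 most abundant genes of each other list, and for each member the 3 genes most correlated with it over tumours.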

Additional observations from a re-analysis of the deposited data

Results flagged for a closer look

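Of 40 groups of libraries examined, 4 groups for each of 10 genes, 1 held a library whose gap to the nearest other, over the range of the group, passed Dixon's 95% critical value, which by its definition chance passes in about 1 in 20 groups. S100a3 stood at 37.1 CPM in K14 replicate 1 and at 1.70 to 2.12 CPM in the other 3 K14 tumours. That library also had the highest hair shaft list mean of the K14 tumours, 4.49 against -1.44 to 0.72.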

How the results depend on the processing

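All 7 S100 genes raised in Ivl tumours stayed raised under each alternative: DESeq2, its size factors, library totals, no filter, filterByExpr, the 15 libraries, the set of 4 libraries as a covariate and each library left out. In K5/K14 tumours S100a7a was not called with library totals (1.31), nor S100a3 within the 15 libraries (-2.59), and between 7 and 9 genes were called. Replicate numbers did not pair the samples (median r of 0.0178 for 25 same-numbered pairs and -0.0349 for 109 others), and with a replicate block 7, 9, 0 and 0 genes were called in the 4 comparisons, S100a10 passing in K5/K14 tumours (0.96) and S100a4 turning to 0.05 between K5 and K14. With library totals S100a10 turned to -0.23 in Ivl tumours. Within the 15 libraries the Ivl minus K5/K14 differences of S100a8 (0.31), S100a9 (0.20), S100a14 (0.05) and S100a16 (0.09) turned positive. S100a4 and the fibroblast list had r = -0.337 within the 15 libraries and 0.591 with group means subtracted. S100a3 and the hair list had r = 0.326 in the low group, a choice made after seeing the data that narrows the range of the list mean. The causes were not tested.

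Leaving out 1 library at a time gave these ranges. Members called between Ivl and K5/K14 tumours ran from 0 to 1. The S100a9 to S100a8 log2 ratio differences ran from 0.519 to 1.93 (Ivl minus skin), 0.882 to 2.30 (K5/K14 minus skin) and -0.431 to -0.185 (Ivl minus K5/K14), and S100a10 to Anxa2, Ivl minus K5/K14, from -0.142 to 0.0762. Correlations ran from -0.154 to 0.453 for S100a8 with the neutrophil list and from -0.0307 to 0.358 for S100a4 with the fibroblast list. Log2 fold changes ran from -1.38 to 0.05 for S100a3 and -0.64 to 0.20 for S100a4 in Ivl tumours against skin, from -0.23 to 0.01 for S100a16 in Ivl against K5/K14 tumours, and from -0.16 to 0.18 for S100a4 and -0.59 to 0.25 for S100a7a in K5 against K14 tumours. Over all genes, DESeq2 called 174 between K5 and K14 tumours and edgeR 0. The adjustment made before deposit cannot be undone.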

Other observations

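For each S100 gene, the genes whose log2 CPM followed it most closely over the 15 tumours were picked among 11453 genes with a mean of at least 5 CPM. They are given as a description, since all genes of a library share its depth and tissue makeup. S100a8 went with 4732465J04Rik, Fhl2 and Krt14 (r = 0.940, 0.940 and 0.938) and S100a9 with Pla2g4e, Ier5 and Rhov (0.930, 0.927 and 0.918). S100a16 had the closest followers of the 10, Mpzl3, Cysrt1 and Atp6v1b2 (0.986, 0.986 and 0.979). S100a11 went with Scand1, Cfl1 and Plek2 (0.961, 0.950 and 0.943) and S100a14 with Golt1b, Cept1 and 2410004B18Rik (0.955, 0.907 and 0.887). S100a7a went with Coro2a, Cadm4 and Dsc2 (0.943, 0.931 and 0.926), Dsc2 being a desmosomal cadherin. S100a6 went with Sfr1, Rbms1 and Fam126a (0.912, 0.883 and 0.874), S100a10 with Sqstm1, Mmp3 and Plin2 (0.902, 0.884 and 0.879), and S100a4 with Ginm1, Crip1 and Tm4sf1 (0.866, 0.862 and 0.854). S100a3 went with Gm49425 and the hair keratins Krt35 and Krt83 (0.950, 0.944 and 0.941).

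Marker lists of other cell types gave the following counts, raised and then lowered, in Ivl and in K5/K14 tumours. Over all genes 20.4% were raised and 15.5% lowered in Ivl, and 23.2% and 38.9% in K5/K14 tumours. Within the 15 libraries these shares were 22.2% and 32.7%, and 23.9% and 42.3%. For 8 macrophage and monocyte genes, led by Lyz2, Mrc1 and Csf1r, the counts were 0 and 0 in Ivl and 1 and 1 in K5/K14 tumours. For 7 T cell genes, led by Trbc2, Cd4 and Cd3g, they were 1 and 0 in Ivl and 1 and 3 in K5/K14 tumours. For 5 endothelial genes, led by Pecam1, Cdh5 and Kdr, they were 1 and 0 in Ivl and 1 and 1 in K5/K14 tumours. For 6 skeletal muscle genes they were 0 and 0 in Ivl and 0 and 6 in K5/K14 tumours, and for 5 adipocyte genes, led by Fabp4, Cidec and Plin1, 0 and 0 in Ivl and 0 and 2 in K5/K14 tumours. The counts within the 15 libraries, Ivl and then K5/K14, were 0 and 1, then 1 and 4 for macrophage and monocyte genes, 1 and 1, then 1 and 3 for T cell genes, 1 and 1, then 1 and 1 for endothelial genes, 0 and 2, then 0 and 6 for muscle genes, and 1 and 1, then 0 and 3 for adipocyte genes. The median of the muscle genes in Ivl tumours moved from -1.90 to -4.33. With library totals 5 macrophage and monocyte genes were lowered in K5/K14 tumours, beside 20668 of all 32031 genes.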
